A study of Mus musculus with 2 samples.

Results

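The stretch of mouse chromosome 17 that holds Six3, Six2 and, about 1 Mb further on, Epas1 was described from its chromatin loops in the uterus. Loops were chosen by position alone: those on chromosome 17 (mm10) with at least 1 anchor inside a window that begins 314 kb below Six3 and ends 567 kb above Epas1. This gave 34 of 24131 loops in estrus and 33 of 26240 in diestrus, or 67 of 50371 in all. Hi-C ligates and sequences pieces of DNA that are near each other in the nucleus, and a loop is a pair of 10 kb segments, its anchors, with more contacts than their surroundings. One library (n = 1) came from the uterus of untreated, intact CD-1 mice in estrus and 1 library (n = 1) from such mice in diestrus, all aged 2 months and without any transgene or agent. CD-1 is an outbred stock, and the labels do not state whether animals were pooled. The uterus was taken whole, so a change of contacts within cells and a change of cell make-up cannot be told apart. There was no replicate check on any difference, and no p-value was computed. Intervals are at 95% and cover counting error only.

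Epas1 encodes HIF-2 alpha, the oxygen-regulated subunit of a transcription factor that pairs with ARNT and binds hypoxia response elements. In the mouse uterus this factor acts in the stroma around implantation. Six2 and Six3 encode homeobox transcription factors. Six2 keeps kidney progenitor cells undifferentiated, and Six3 patterns the forebrain and eye. Loops of this kind are commonly formed by cohesin, which extrudes chromatin until it meets CTCF, and domains so formed limit which enhancers a promoter can contact.

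The genes lie, on GRCm38.p6 (the assembly named mm10), at 85613608 to 85626191 for Six3, 85662736 to 85688254 for Six2 and 86753864 to 86833410 for Epas1. Six3 and Six2 are 36.5 kb apart, and 1066 kb separate Six2 from Epas1, a stretch that holds Srbd1, an RNA-binding protein gene, and Prkce, the gene of protein kinase C epsilon. The sequences shown are the 250 bases before the start of 4 genes, from RefSeq on GRCm38.p6, each written 5′ to 3′ on its gene's strand. Six3 and Six2 are shown as members. Tmem247 and Rhoq are shown because the starts of both genes fall in loop anchors just past Epas1. The capitals mark matches, on either strand, to the core of the hypoxia response element (ACGTG or GCGTG), the half-site of the estrogen receptor (AGGTCA) or that of the progesterone receptor (AGAACA).
Six3, chr17:85620584-85620833, plus strand: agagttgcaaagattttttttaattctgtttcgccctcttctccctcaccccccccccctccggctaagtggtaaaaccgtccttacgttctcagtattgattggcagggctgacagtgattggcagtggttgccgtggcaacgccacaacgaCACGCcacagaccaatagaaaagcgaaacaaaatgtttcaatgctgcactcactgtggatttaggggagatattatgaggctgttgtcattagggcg
Six2, chr17:85688255-85688504, minus strand: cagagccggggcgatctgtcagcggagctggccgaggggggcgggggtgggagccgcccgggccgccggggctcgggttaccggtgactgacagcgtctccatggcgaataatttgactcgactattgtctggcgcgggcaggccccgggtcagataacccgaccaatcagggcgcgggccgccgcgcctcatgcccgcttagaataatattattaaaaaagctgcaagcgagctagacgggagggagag
Tmem247, chr17:86917098-86917347, plus strand: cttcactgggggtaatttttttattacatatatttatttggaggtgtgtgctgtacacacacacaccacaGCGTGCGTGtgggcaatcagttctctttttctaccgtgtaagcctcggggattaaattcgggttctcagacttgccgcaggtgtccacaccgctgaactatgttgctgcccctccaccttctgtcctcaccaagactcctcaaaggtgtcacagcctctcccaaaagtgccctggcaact
Rhoq, chr17:86962861-86963110, plus strand: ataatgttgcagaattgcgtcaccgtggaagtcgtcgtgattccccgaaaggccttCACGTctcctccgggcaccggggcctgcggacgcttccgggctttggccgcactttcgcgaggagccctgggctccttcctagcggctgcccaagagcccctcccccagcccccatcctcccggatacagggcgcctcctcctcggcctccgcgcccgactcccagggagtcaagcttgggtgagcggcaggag

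Six3 held 1 match to GCGTG, Tmem247 held 2 that overlap, and Rhoq held 1 match to ACGTG. None of the 4 motifs was found in the 250 bases of Six2. Among 27025 genes with such a sequence, ACGTG was found in 16.6%, GCGTG in 28.2%, AGGTCA in 13.8% and AGAACA in 16.2%. A match is a description of these letters, not of binding. The start of Six2 lay inside an anchor (chr17:85680001-85690000) that was used in diestrus, while the start of Six3 taken for these sequences, which lies inside the extent given above, fell in a bin (chr17:85620001-85630000) that was no anchor in either library.

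**Figure D1:**
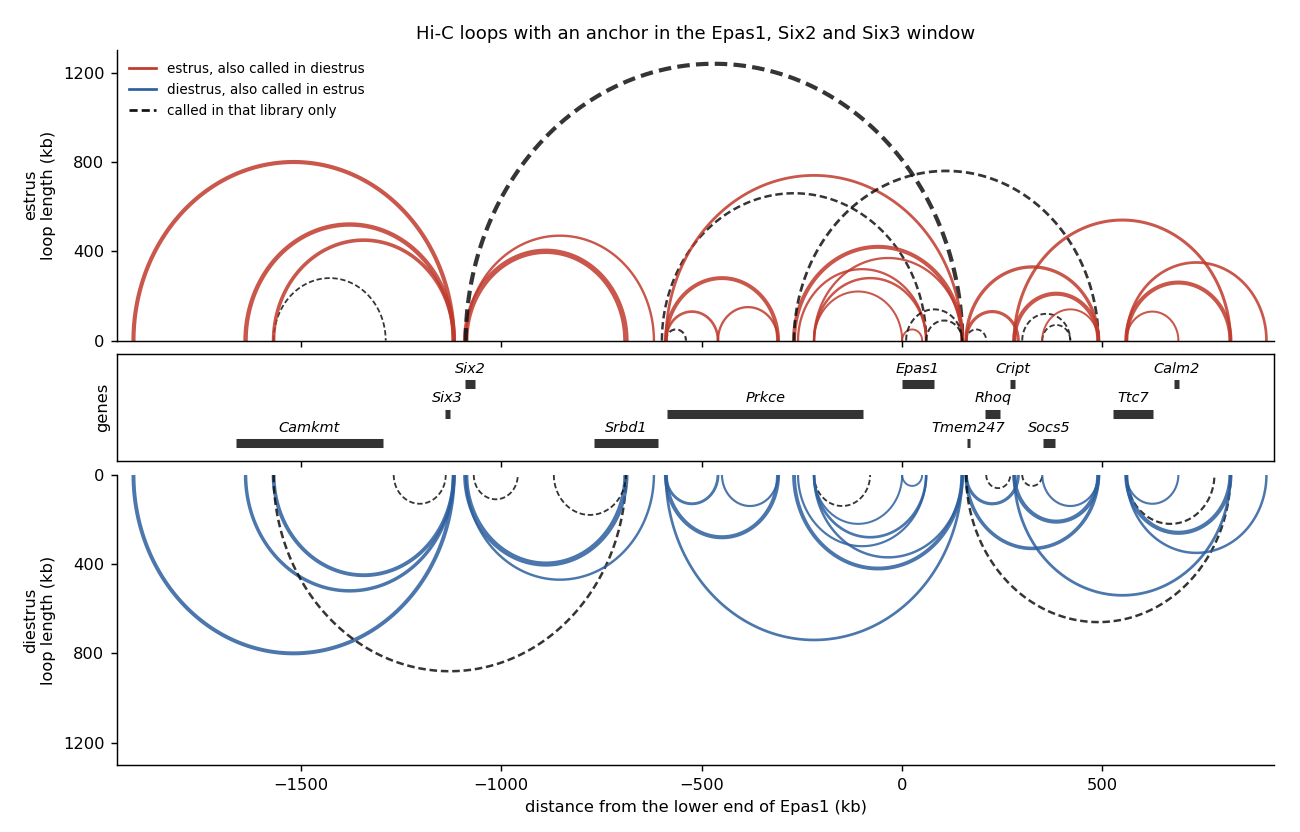
Loops of the window in estrus (top) and diestrus (bottom), drawn as arcs between the middles of their anchors against the distance from the lower end of Epas1 in kb, with arc height showing loop length in kb and line width growing with observed over expected contacts up to 12 times. Coloured arcs have a counterpart in the other library, dashed black arcs have none (10 in estrus, 9 in diestrus), and the single loop over 2 Mb in each library is not drawn.

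Most loops of the window were listed in both stages. Of the estrus loops 24 of 34, or 70.6% (52.5% to 84.9%, Clopper-Pearson), had a counterpart in the diestrus list with both anchors within 10 kb. Of the diestrus loops 24 of 33, or 72.7% (54.5% to 86.7%), had one in the estrus list. That left 10 estrus loops without a counterpart, 29.4% against 19.2% over the whole estrus list, and 9 diestrus loops, 27.3% against 25.6% over the whole diestrus list. Both genome-wide shares lie inside the intervals for the locus. All but 1 of the 24 pairs sat at identical bins. Loops held 16 to 476 contacts in estrus and 20 to 544 in diestrus, with medians of 190.5 and 204, against a median of 125 over all loops of either library. The median of observed over expected contacts, called strength here, was 4.13 in estrus and 3.92 in diestrus. Over all loops it was 3.43 in estrus and 3.28 in diestrus.

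Loops without a counterpart were mostly weak. Their median strength was 2.58 in estrus, where the 24 other loops had a median of 5.07. In diestrus it was 2.08, against 4.86 for the other 24. The lowest strength in the whole estrus list was 1.75, and in the whole diestrus list it was 1.75 as well, so many of these loops lay near the lower end of what was called. Over the whole lists, loops without a counterpart were weaker too, with medians of 2.57 in estrus and 2.56 in diestrus. Those with a counterpart had medians of 3.74 and 3.68. A list names called loops only, and a missing loop does not mean missing contacts.

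Six3 and Six2 sat on opposite sides of a divide, meaning here a stretch that few listed loops spanned. A loop spans a bin when its anchors lie on either side of it, so loops that end in the bin are not counted. How rare such stretches are over the genome was not counted. The anchor chr17:85630001-85640000, whose edge is 3.81 kb past the upper end of Six3, took part in 3 loops in each library, all of which ran to lower coordinates. The anchor chr17:85660001-85670000, which holds the lower end of Six2, took part in 3 loops in estrus and 2 in diestrus, all of which ran to higher coordinates. No estrus loop of up to 2 Mb spanned any bin of the 40 kb from 85630001 to 85670000, and 1 diestrus loop did. That diestrus loop ran 880 kb from Camkmt, a calmodulin methyltransferase gene, to Srbd1, with 35 contacts (24.4 to 48.7) at a strength of 3.99. It was the one loop under 2 Mb that ran across both Six3 and Six2, and it was not listed in estrus.

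On the Six3 side, the 3 shared loops reached 800 kb, 520 kb and 450 kb away. The loop of 800 kb held 132 contacts in estrus and 139 in diestrus, at strengths of 8.42 and 7.88. That of 450 kb, which ends inside Camkmt, held 162 contacts in estrus and 169 in diestrus, at 7.01 and 7.65. The loop of 520 kb from chr17:85110001-85120000, also inside Camkmt, held 142 contacts (120 to 167) in estrus and 95 (76.9 to 116) in diestrus, at 9.24 and 6.60. The log2 of its estrus strength over its diestrus strength, centred, was 0.47 (0.09 to 0.86), where centring sets the median over all 19399 pairs of the genome to 0. It was the pair of the window that stood furthest towards estrus, and the only one of the 24 whose interval lay wholly above 0. None of the 24 intervals was widened for the number of pairs, and this pair was picked as the extreme. Its 2 neighbours at the same Six3 anchor had ratios of 0.08 (-0.27 to 0.43) and -0.14 (-0.46 to 0.18), and both of these intervals overlap that of the loop of 520 kb.

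An end of Six3 itself lay in an anchor once, in diestrus. This loop of 130 kb, from chr17:85480001-85490000 to chr17:85610001-85620000, held 79 contacts (62.5 to 98.5) at a strength of 2.01. Six3 therefore had 0 loops in estrus and 1 in diestrus, or 3 and 4 when its ends were allowed to lie within 5 kb of an anchor. The nearest loop of the estrus list was 300 kb off in at least 1 anchor. In estrus a loop of 280 kb within Camkmt and its upper flank held 51 contacts at 1.92, the lowest strength of the window in that library, and it had no counterpart in diestrus.

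The strongest loop of the window below 2 Mb joined Six2 to Srbd1. It spanned 400 kb from the lower end of Six2 to chr17:86060001-86070000 and held 352 contacts (316 to 391) in estrus and 377 (340 to 417) in diestrus. Its strength was 12.1 in estrus and 11.4 in diestrus, values reached by 1.60% of all estrus loops and 1.78% of all diestrus loops. The centred log2 ratio was 0.07 (-0.14 to 0.28). A second loop from the same Six2 anchor, of 470 kb, held 54 contacts in estrus and 64 in diestrus at 3.60 and 3.78. Its ratio was -0.08 (-0.63 to 0.46), so the intervals of both pairs included 0.

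Six2 had 3 loops in each library, but the sets differed by 1 loop each. The third estrus loop ran 1240 kb from the lower end of Six2 to chr17:86900001-86910000, an anchor 66.6 kb beyond the upper end of Epas1. It held 20 contacts (12.2 to 30.9) where 2.34 were expected, a strength of 8.57, in a single enriched pixel. It was the only loop of either list that left from Six3 or Six2 and reached past the start of Epas1. The third diestrus loop ran 110 kb from the bin with the start of Six2, whose preceding bases are printed above, to chr17:85790001-85800000. It held 92 contacts (74.2 to 113) at a strength of 2.03. In diestrus a further loop of 180 kb ended at the same Srbd1 anchor as the strong Six2 loop, with 62 contacts at 2.08.

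**Figure D2:**
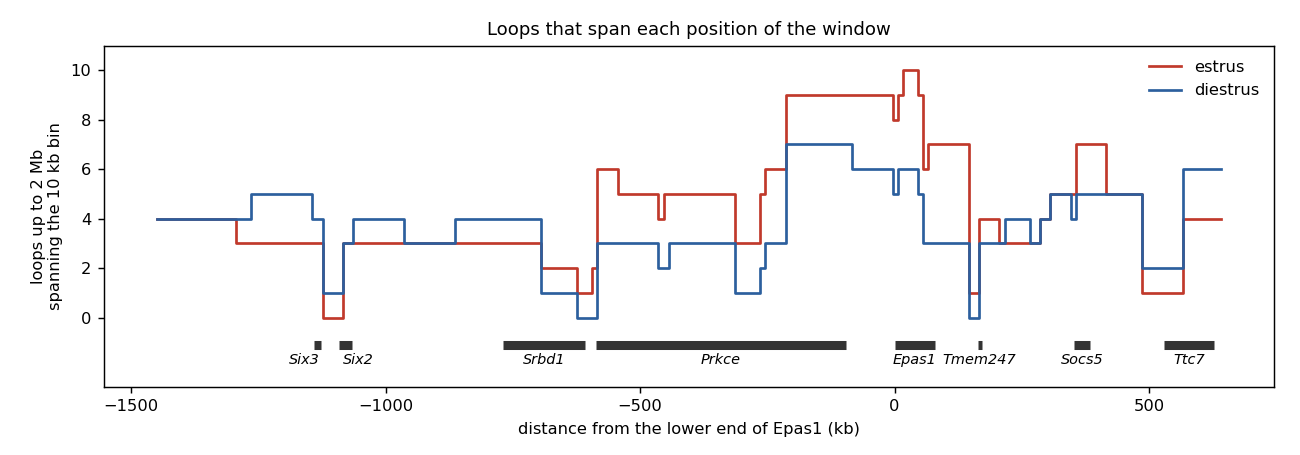
Number of loops of up to 2 Mb that span each 10 kb bin of the window (vertical axis) against the distance from the lower end of Epas1 in kb, for estrus and diestrus. Loops that end in a bin are not counted for it. Both lines drop to 0 or 1 between Six3 and Six2, to 0 to 2 between Srbd1 and Prkce, and to 0 or 1 just below Tmem247, and over Epas1 they reach 10 in estrus and 6 in diestrus.

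Other divides flanked the segment of Prkce and Epas1. From 86130001 to 86170000, between Srbd1 and Prkce, each bin was spanned by 1 or 2 loops in estrus and by 0 in diestrus. From 86900001 to 86920000, between Epas1 and Tmem247, each bin was spanned by 1 estrus loop and 0 diestrus loops. Both of these bins were themselves anchors of several loops. These 3 divides were read off the lists. The rule was that no loop of up to 2 Mb spanned the bins in at least 1 library. A further stretch of few loops, from 87240001 to 87320000, was spanned by 1 estrus loop and 2 diestrus loops, and it was not used to split the window. Nor were 86060001 to 86130000, spanned by 2 and 1, and 86440001 to 86490000 within Prkce, spanned by 3 and 1. Between the Srbd1 and the Tmem247 divides lay 14 estrus loops and 11 diestrus loops, of which 10 in each had a counterpart. In the segment of Six2 and Srbd1 there were 2 estrus loops and 4 diestrus loops. Past Epas1 there were 11 and 12. The 10 pairs of the Prkce and Epas1 segment held 2602 contacts in estrus and 2847 in diestrus, a ratio of 0.914 (0.866 to 0.964). Over all pairs of the genome the ratio of contacts was 0.957, and the median centred log2 ratio of the 10 was -0.01.

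At Epas1, 2 loops had an end of the gene in an anchor in each library, both at the bin of its lower end (chr17:86750001-86760000). One ran 220 kb down into Prkce, to chr17:86530001-86540000. It held 219 contacts (191 to 250) in estrus and 229 (200 to 261) in diestrus, at strengths of 2.65 and 2.64. The other ran 50 kb within Epas1, to chr17:86800001-86810000, and its centred log2 ratio was -0.01 (-0.26 to 0.23). The loop into Prkce had a ratio of -0.01 (-0.28 to 0.26). Neither loop differed between the libraries beyond counting error, and the intervals still leave room for changes of that size on the log2 scale.

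In estrus the bin chr17:86810001-86820000 inside Epas1 took part in more loops than the bin at the lower end of the gene. In diestrus the 2 bins took part in equally many. Loops joined the bin at 86810001 to 2 places within Prkce in both libraries. The loop of 320 kb held 225 contacts (197 to 256) in estrus and 218 (190 to 249) in diestrus, at 3.39 and 3.10. That of 280 kb held 265 contacts (234 to 299) in estrus and 322 (288 to 359) in diestrus, at 3.84 and 4.49. Its centred log2 ratio of -0.24 (-0.48 to -0.00159) lay just below 0, and that was 1 of 2 pairs of the window with an interval wholly below 0.

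The extra loops at Epas1 were in estrus. When every part of the gene was counted, Epas1 had 7 loops in estrus and 4 in diestrus. All 4 diestrus loops had a counterpart, and 3 estrus loops had none. Counted in this way, 25.6% of the 11549 protein-coding genes with a loop had more in estrus and 33.0% had more in diestrus. A difference of any size in this direction is therefore common. The share of genes with a difference as large as that of Epas1 was not computed. The first of the 3 ran 90 kb from the body of Epas1 at 86810001 to the anchor at 86900001 and held 139 contacts (117 to 164) at a strength of 2.57. The second ran 140 kb to the same anchor from the bin next to the lower end of Epas1, with 67 contacts (51.9 to 85.1) at 2.58. The third ran 660 kb from chr17:86150001-86160000, below Prkce, to the bin of Epas1 at 86810001, with 34 contacts (23.5 to 47.5) at 3.87.

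The anchor chr17:86900001-86910000 lies in the gap between Epas1 and Tmem247, and its loops ran only to lower coordinates. It took part in 6 loops in estrus and 3 in diestrus. The 3 loops in both lists came from within or at the edge of Prkce. The one of 420 kb held 310 contacts in estrus and 316 in diestrus at 8.16 and 7.69. The one of 370 kb held 141 contacts in estrus and 174 in diestrus at 3.33 and 3.77. The one of 740 kb, from the anchor with the lower end of Prkce, held 72 contacts in estrus and 86 in diestrus at 4.74 and 4.44. All 3 intervals of their ratios included 0. The other 3 estrus loops were those from Six2 and from the 2 bins of Epas1 given above. So the shared loops of this anchor did not differ beyond counting error, while the list of its partners was longer in estrus.

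**Figure D3:**
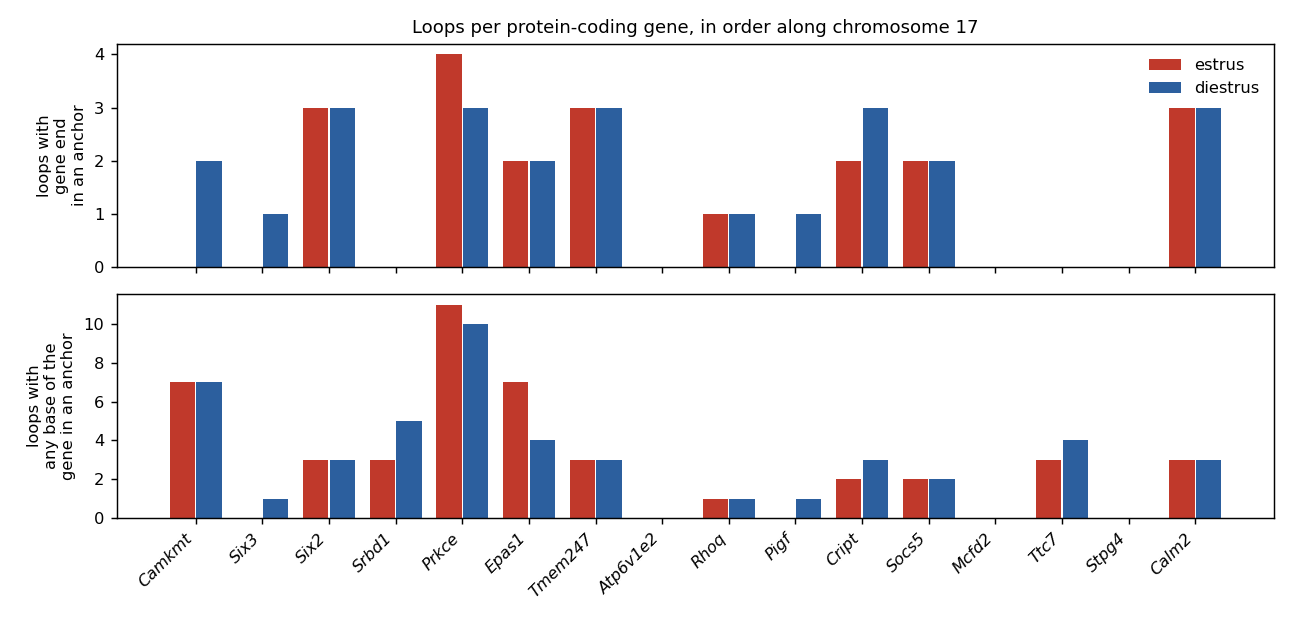
Number of loops (vertical axes) per protein-coding gene with an end (top) or any base (bottom) in an anchor, for estrus and diestrus, with genes in order along chromosome 17 and 1 predicted gene left out. Epas1 has 2 bars of equal height in the top panel and 7 against 4 in the bottom panel, and Prkce has 4 against 3 in the top panel.

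Prkce, the neighbour of Epas1, had many loops of its own. An end of it lay in an anchor of 4 estrus loops and 3 diestrus loops, and any base of it in 11 and 10. From its lower end at chr17:86160001-86170000, the loop of 280 kb held the most contacts of the window, 476 (434 to 521) in estrus and 544 (499 to 592) in diestrus, at 7.91 and 8.28. The loop of 130 kb held 352 (316 to 391) in estrus and 422 (383 to 464) in diestrus, at 4.39 and 5.03. That pair had a centred log2 ratio of -0.21 (-0.42 to -0.0065), the other of the 2 intervals wholly below 0. In estrus a loop of 50 kb left from the same anchor with 373 contacts (336 to 413) at 2.88. It had no counterpart in diestrus. The only pair of the window not at identical bins also lay within Prkce, 150 kb long in estrus and 140 kb in diestrus, with 262 contacts in estrus and 251 in diestrus. Diestrus also had a loop of 140 kb from within Prkce to a bin past its upper end, with 119 contacts (98.6 to 142) at 2.08.

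Beyond Epas1, ends of Tmem247, Rhoq, Pigf, Cript and Socs5 lay in anchors. Tmem247, a transmembrane protein gene, had 3 loops in each library, from an anchor whose loops ran only to higher coordinates. One, of 130 kb, held 243 contacts in estrus and 231 in diestrus, with a strength of 5.83 in both. Another, of 330 kb, held 100 contacts in estrus and 124 in diestrus, at 6.23 and 6.98. The third differed by library: in estrus it ran 50 kb to the start of Rhoq, a small GTPase gene, with 233 contacts (204 to 265) at 2.11, and in diestrus 660 kb with 29 contacts (19.4 to 41.6) at 3.89. Rhoq in turn had a diestrus loop of 60 kb to the bin with an end of Pigf, which acts in making the glycosylphosphatidylinositol anchor, and an end of Cript, with 231 contacts (202 to 263) at 2.04. At the start of Rhoq, a loop towards Epas1 was listed only in estrus and a loop away from it only in diestrus. Both lay near the lower end of what was called: 93.8% of estrus loops and 95.9% of diestrus loops were at least as strong. Neither missing entry means missing contacts, so a switch of direction was not shown.

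Cript had 2 loops in estrus and 3 in diestrus. Its loop of 210 kb held 295 contacts in estrus and 296 in diestrus, at 8.42 and 8.43. At Socs5, which encodes a suppressor of cytokine signalling, there were 2 loops in each library. Of these, the shared loop of 140 kb held 149 contacts (126 to 175) in estrus and 204 (177 to 234) in diestrus, with a centred log2 ratio of -0.30 (-0.62 to 0.01). Estrus also had loops of 120 kb and 70 kb to chr17:87170001-87180000, with 256 and 332 contacts at 2.24 and 1.99, and diestrus had 1 of 50 kb to Socs5 with 386 contacts (348 to 426) at 2.22. At the upper edge, the loop of 260 kb from within Ttc7 held 445 contacts (405 to 488) in estrus and 473 (431 to 518) in diestrus at 8.27 and 8.51. A loop from Ttc7 to Calm2, a calmodulin gene with 3 loops in each library, held 222 contacts in estrus and 246 in diestrus. A single estrus loop of 760 kb crossed the divide between Epas1 and Tmem247, from Prkce to chr17:87240001-87250000, with 35 contacts (24.4 to 48.7) at 4.63.

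**Figure D4:**
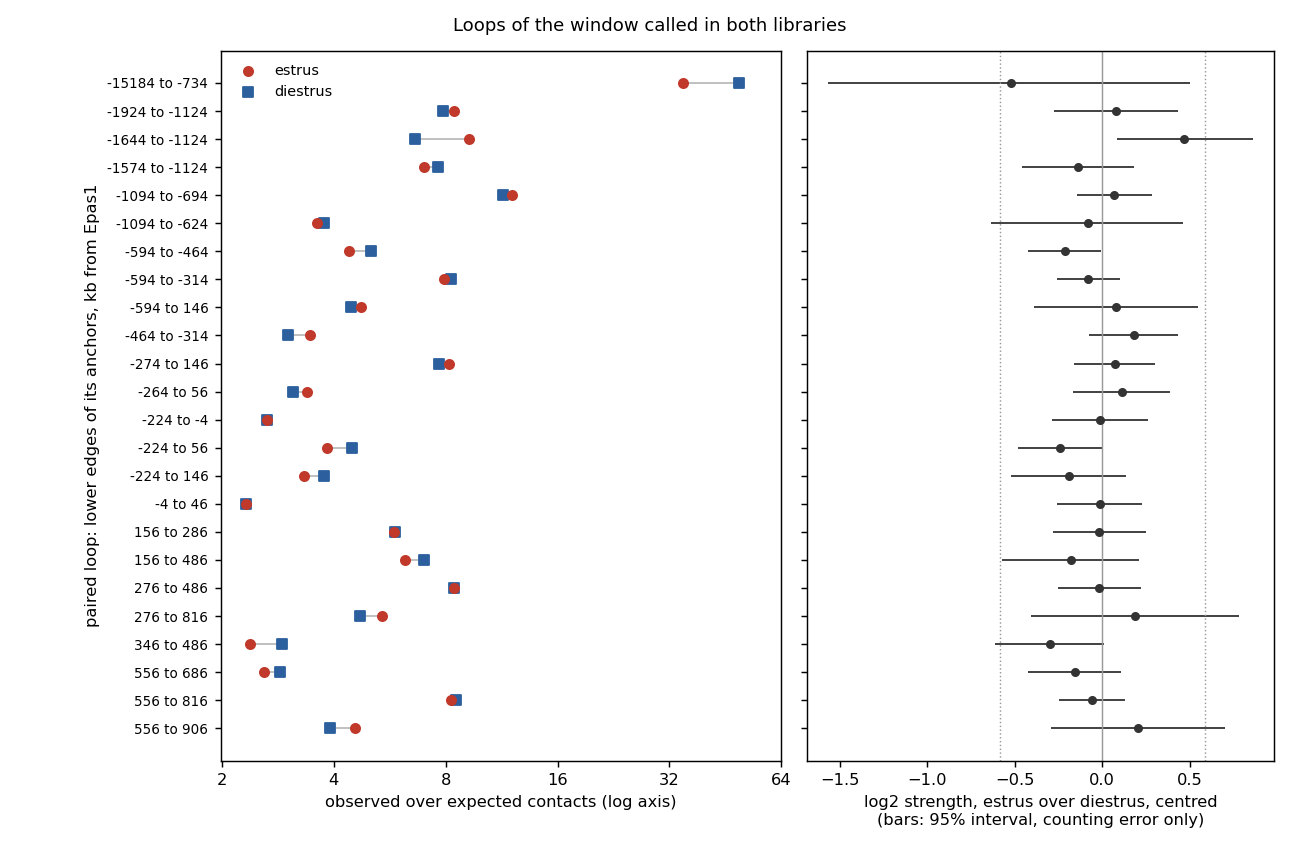
Observed over expected contacts of the 24 paired loops (left, log axis; circles for estrus, squares for diestrus) and their centred log2 ratio, estrus over diestrus, with 95% counting intervals (right; dotted lines at 1.5-fold either way). Loops are named by the lower edges of their estrus anchors in kb from the lower end of Epas1, and every point in the right panel lies between the dotted lines.

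Over the 24 pairs the median centred log2 ratio was -0.02 (-0.16 to 0.08), against 0 over all pairs by construction. It was above 0 for 9 pairs and below 0 for 15, with a range of -0.52 to 0.47. For 21 pairs the interval included 0, and no interval was widened for the number of pairs compared. No pair was over 1.5-fold stronger in estrus, where 1.64% of all pairs were, and none was over 1.5-fold stronger in diestrus, where 1.56% were. With these genome-wide shares, 0 of 24 is near the background in both directions. The lowest ratio, -0.52 (-1.57 to 0.50), was that of the longest loop, 14450 kb from chr17:71570001-71580000 to Srbd1. It held 16 contacts in estrus and 20 in diestrus where 0.460 and 0.405 were expected, so its strengths of 34.8 and 49.4 rest on backgrounds under 1 contact. With the bottom-left, horizontal and vertical expectations in place of the donut its ratio was -0.96, -1.25 and -0.82, past 1.5-fold towards diestrus each time.

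By the number of loops at their ends, the genes of the window differed little between stages. Of the 16 protein-coding genes that overlap it, 1 had more loops in estrus (Prkce), 4 had more in diestrus (Camkmt, Six3, Pigf and Cript), 6 had equal numbers and 5 had none. Among the 9049 protein-coding genes with a loop, 25.1% had more in estrus and 33.5% had more in diestrus. The 2 diestrus loops of Camkmt had their anchors outside the window and each had a counterpart in estrus. Pigf and Cript had more in diestrus through 1 and the same loop, that of 60 kb from Rhoq, at a strength of 2.04.

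A second stretch of the mouse genome has a like gene order. On chromosome 12, Six6 and Six4 lie below Prkch and Hif1a. Six6 is the closest relative of Six3, Prkch that of Prkce, and Hif1a that of Epas1. A window with about the same margins held 38 loops in each library, of which 31 in each, or 81.6% (65.7% to 92.3%), had a counterpart. The Epas1 window had 70.6% and 72.7%, inside that interval. The 30 pairs of the Hif1a window had a median centred log2 ratio of 0.05 (-0.03 to 0.14). One of them passed 1.5-fold towards estrus, and 0 passed it towards diestrus. That pair was not at identical bins, and it held 43 contacts in estrus and 63 in diestrus, where 9.56 and 24.1 were expected.

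**Figure D5:**
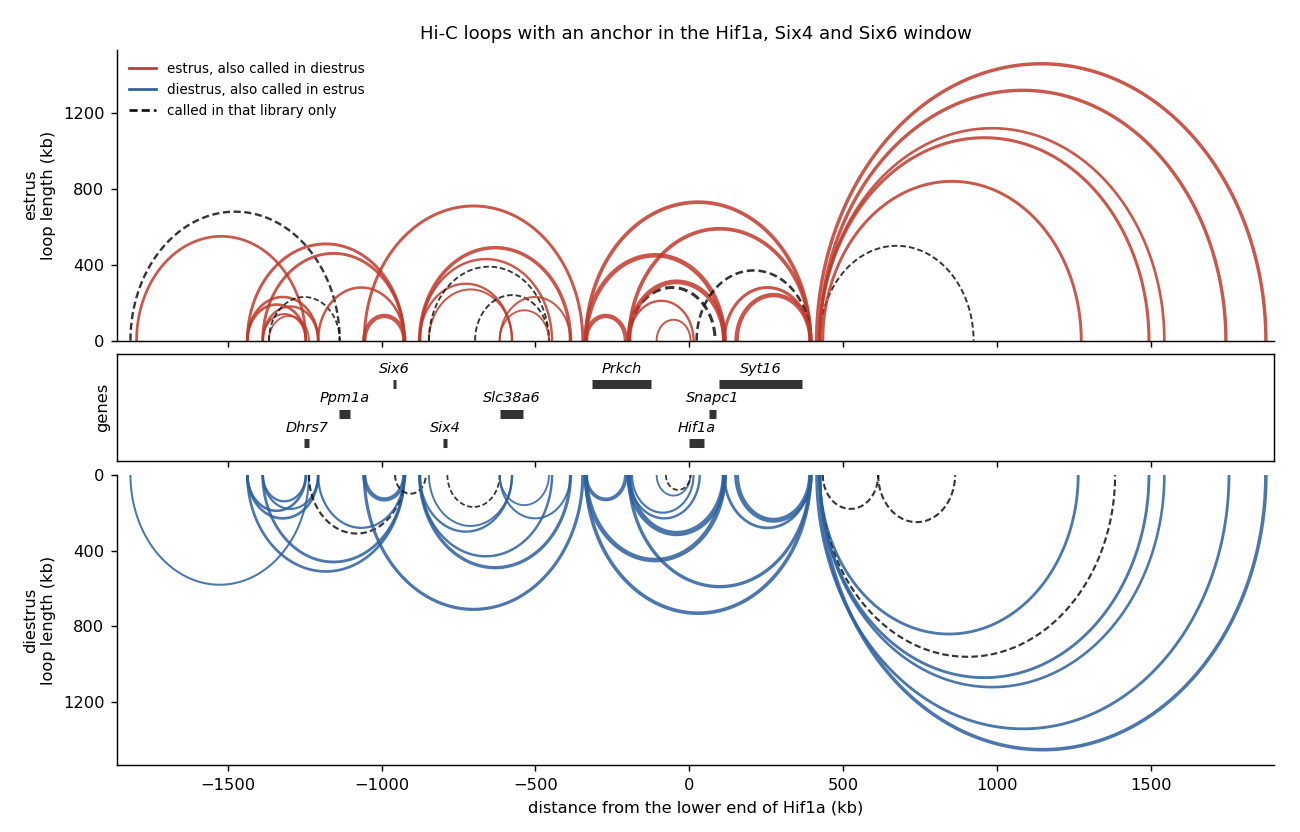
Loops of the window of Hif1a, Six4 and Six6 on chromosome 12, in estrus (top) and diestrus (bottom), drawn as in the map of the Epas1 window, against the distance from the lower end of Hif1a in kb. Each library has 38 loops, and the 7 dashed black arcs in each have no counterpart in the other.

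Loops joined the kinase gene to its HIF neighbour in both stretches. From within Prkce to within Epas1 there were 3 loops in each library, with 219 to 265 contacts in estrus and 218 to 322 in diestrus. From within Prkch to within Hif1a there was 1 loop in estrus, with 254 contacts at 3.51, and there were 2 in diestrus, with 253 and 257 contacts at 2.92 and 3.62. Both diestrus loops had that 1 estrus loop as their counterpart within the 10 kb allowed, so the counts need not mean an added link in diestrus. A loop that reached the HIF gene or beyond from its homeobox neighbours was listed 1 time for Six2 in estrus and in neither library for Six6 or Six4. Between Six3 and Six2 no loop was listed.

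Over a list of 28 genes of the HIF pathway, 6 had more loops in estrus, 5 had more in diestrus, 9 had equal numbers and 8 had none, with a median difference of 0. Over all protein-coding genes with a loop, 25.1% had more in estrus and 33.5% had more in diestrus. The summed loops were 54 in estrus and 53 in diestrus, of which Cited2 alone had 17 and 19. Arnt, the partner of HIF-2 alpha, had 1 loop in estrus and 0 in diestrus at its ends, and the estrus loop had a counterpart in diestrus within the 10 kb allowed. Vhl, which marks HIF-2 alpha for destruction, had 1 in each, and Vegfa, an angiogenic target, had 3 in each. Egln3, one of the oxygen-sensing hydroxylases, had 3 in estrus and 4 in diestrus. In a list of 20 genes that act with Six2 and its relatives, among them the Eya and Dach families, 2 had more loops in estrus, 7 had more in diestrus, 6 had equal numbers and 5 had none, again with a median difference of 0. The same shares over all protein-coding genes with a loop, 25.1% and 33.5%, and their median difference of 0 stand beside these counts. The summed loops were 31 in estrus and 39 in diestrus. Osr1, an early kidney gene, had 7 in estrus and 9 in diestrus, and Sall1, a partner of Six2 in kidney progenitors, had 5 and 8. The 2 genes with more in estrus were Dach1, with 4 in estrus and 3 in diestrus, and Pax8, with 1 and 0. Eya2, a cofactor of Six2, had 3 in each.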

How the data were processed

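One list of chromatin loops per stage was used, from Hi-C libraries built with an Arima kit (labels' protocols). The submitters' processing notes name Juicer and mm10, and per the file headers the columns are those of its caller HiCCUPS. The labels do not name the aligner or the caller's settings. Contacts observed and pixels merged are counts by the authors, without normalization. Expected contacts of 4 neighbourhoods are a signal from the authors' caller, on the scale of raw contacts. The q-values are those deposited, up to 0.0991 in estrus and 0.0955 in diestrus. The deposited anchor positions are a unit of another kind, other (bases). Called loops held 4153485 contacts in estrus and 4533525 in diestrus, and full library depths are not used here. The lists name no molecular identifiers, so reads need not be independent molecules. Poisson and conditional intervals therefore cover counting error alone, and the strength intervals take expected contacts as exact.

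Groups were taken from the stage label. Loops were counted as shared when both anchors lay within 10 kb between nearest edges, and mutually nearest loops were paired. Strength is observed over donut-expected contacts, with log2 ratios centred on the median over 19399 pairs. Genes came from a RefSeq table of GRCm38.p6, without strands. A gene has a loop when either end lies in an anchor. Members, lists, the rule for named genes and the tests were chosen with earlier results of these data known. The rule named Epas1, Six2, Six3, genes with an end in an anchor of a chosen loop, the 5 loops with most contacts per library, the 5 pairs with the largest ratios and the 5 strongest loops of 1 library. All 48 listed symbols matched, Bmal1 as Arntl. Promoter sequences were found for Six2 and Six3, not for Epas1. The window on chromosome 12 ran from 300 kb below Six6 to 570 kb above Hif1a, and 1 gene in it is not reported here. Alternatives changed tolerance, background, centring, q-values, list length and gene assignment. Methods were tested on simulated data. Python 3.11.15, pandas 2.3.3, numpy 2.4.6 and scipy 1.17.1 were used.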

Additional observations from a re-analysis of the deposited data

How the results depend on the processing

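No paired analysis was possible because each stage has 1 library, and leaving out a replicate was not possible either. Gene assignment moved more counts than any other choice, though Six2 kept 3 loops in each library under every assignment. Counting every base of Epas1 gave 7 loops in estrus and 4 in diestrus, in place of 2 and 2. With its ends within 5 kb or 10 kb of an anchor, Six3 had 3 in estrus and 4 in diestrus, in place of 0 and 1. When the diestrus list was cut to its strongest loops, Six3 had 0 there and Six2 had 2. With stricter q-values Six2 had 2 loops in estrus and 3 in diestrus. Loops that cross the middle between Six2 and Epas1 numbered 5 in estrus and 3 in diestrus, of which 3 in each left from the lower end of Prkce. Loops that joined the parts of that stretch nearest to Six2 and to Epas1 numbered 1 in estrus and 0 in diestrus. One pair, the loop of 520 kb that ends beside Six3, passed 1.5-fold towards estrus with scaled raw contacts (0.64), and 1, the loop of 14450 kb, passed it towards diestrus with the bottom-left, the horizontal or the vertical expectation. The cause was not tested. The median ratio of the pairs stayed between -0.05 and 0.01 under all alternatives tried, and the number of loops fell to between 25 and 31 in estrus, in place of 34, and between 22 and 32 in diestrus, in place of 33. With stricter q-values or at least 50 contacts, Epas1 had 6 loops in estrus and 4 in diestrus with any base in an anchor, and the loop from Six2 past Epas1, of 20 contacts, is lost under the contact minimum. Depth limits what can be said of loops under about 50 contacts. All settings used the same pair of lists and are no independent check.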
